A study of Homo sapiens with 6 samples.

Results

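Cholesterol and fatty acid synthesis genes were followed in PANC-1, a cell line derived from a human pancreatic duct carcinoma, with and without maslinic acid (MA), a pentacyclic triterpenoid acid found in olives. The genes were chosen by their symbols, and 36 of the 58825 genes in the deposited table belonged to this group, each under a single Ensembl identifier. They comprised 18 enzymes of the sterol pathway from acetyl-CoA to cholesterol, 8 enzymes of fatty acid synthesis, elongation and desaturation, 8 regulators, and 2 genes of sterol transport and storage. RNA was sequenced from 6 samples. The 3 MA PANC-1 samples had been given 40 μM MA for 24 h. The 3 PANC-1 samples were untreated by their labels (0 μM MA). The methods of the study name DMSO as the control treatment of its cells, without saying so for the sequenced samples in particular. All 6 were grown in the same serum-supplemented medium and come from a single cell line, and the study describes them as biological replicates.

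The identity of the cells was examined through marker genes of PANC-1 and of other cell types. The epithelial keratins KRT8 and KRT18 averaged 213 and 325 FPKM in PANC-1 cells, and the mesenchymal filament gene VIM averaged 665 FPKM. FPKM are fragments per kilobase of transcript, scaled to sequencing depth, so levels of different genes can be set side by side. The duct transcription factor gene SOX9 averaged 17.4 FPKM in PANC-1 and 13.5 FPKM in MA PANC-1 samples. Of the other ductal keratins, KRT7 averaged 2.03 FPKM in PANC-1, and KRT19 was near absent, with no value above 0.109 FPKM in any sample. The defining genes of acinar cells (CPA1, AMY2A), islet cells (GCG), T cells (CD3E), adipocytes (ADIPOQ) and hepatocytes (ALB) had no count in any sample. CELA3A (acinar), CHGA (islet), PTPRC (leukocyte) and PECAM1 and CDH5 (endothelium) were at or below 0.0275 FPKM in every sample. Of the fibroblast genes, DCN was near 0, LUM averaged 0.577 FPKM, and COL1A1 averaged 4.51 FPKM in PANC-1 and 3.58 FPKM in MA PANC-1 samples. The part of the other cell types in the results was not tested.

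Cholesterol is built from acetyl-CoA through mevalonate, the isoprenoid farnesyl diphosphate, the linear squalene and the first ring-shaped sterol, lanosterol, which is then trimmed and reduced. Fatty acids start from the same cytosolic acetyl-CoA and pass through malonyl-CoA to palmitate, which is elongated and desaturated. Both routes are controlled by SREBP transcription factors: when sterols are low, SCAP carries SREBP from the endoplasmic reticulum to the Golgi for cleavage, and INSIG proteins hold it back when sterols are plentiful. The LXR receptors respond to oxidized sterols and turn on genes of cholesterol export, of SREBP-1c and of the ubiquitin ligase MYLIP.

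SREBP acts at promoters together with the factors NF-Y and Sp1, so promoter sequences are shown for 4 of the genes. DHCR7 and MVD were higher in MA PANC-1 at an unadjusted p under 0.05 from edgeR. For MVD this p was 0.0496 and the groups overlapped. INSIG1 and HMGCS1 differed widely between samples of the same treatment. The sequences are those of RefSeq on GRCh38.p14, from the window of 250 bases before to 50 bases after the annotated start, and each is limited to its longest stretch outside annotated exons. They run 5′ to 3′ on the strand of the gene, and capitals mark the NF-Y box CCAAT or its reverse complement ATTGG. The DHCR7 stretch (chr11:71448436-71448643, minus strand) held 2 boxes, the MVD stretch (chr16:88663162-88663297, minus strand) held 3, and those of INSIG1 (chr7:155297628-155297775, plus strand) and HMGCS1 (chr5:43313513-43313662, minus strand) held 1 each. The full HMGCS1 window held a further box, directly past the end of the stretch shown, so its count depends on where the stretch ends. The start that RefSeq gives DHCR7 lies inside the span of the gene in the deposited table.
DHCR7: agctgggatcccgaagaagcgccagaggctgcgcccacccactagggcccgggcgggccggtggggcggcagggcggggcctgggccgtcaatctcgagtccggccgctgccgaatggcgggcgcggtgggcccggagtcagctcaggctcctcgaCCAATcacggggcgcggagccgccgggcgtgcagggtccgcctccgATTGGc
MVD: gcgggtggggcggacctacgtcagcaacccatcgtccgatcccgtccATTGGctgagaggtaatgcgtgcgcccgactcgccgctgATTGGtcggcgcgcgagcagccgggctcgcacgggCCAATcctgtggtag
INSIG1: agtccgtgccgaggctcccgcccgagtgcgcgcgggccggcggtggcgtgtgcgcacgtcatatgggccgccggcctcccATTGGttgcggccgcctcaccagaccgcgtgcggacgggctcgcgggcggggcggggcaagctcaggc
HMGCS1: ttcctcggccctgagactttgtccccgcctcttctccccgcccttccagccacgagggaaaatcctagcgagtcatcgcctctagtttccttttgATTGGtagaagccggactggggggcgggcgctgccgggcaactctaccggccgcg

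Of the 36 genes, 32 had a promoter window in the RefSeq table, and ACAT2, FDFT1, SQLE and FASN had none. Searched on both strands, CCAAT occurred in 12 of 15 sterol enzyme promoters and in 3 of 7 fatty acid enzyme promoters (42.9%), against 34.6% of all 35116 promoter windows of the same length. The fatty acid enzymes with the box were ACLY, ELOVL5 and SCD. The GC box bound by Sp1, GGGCGG, occurred in 28 of the 32 promoters (87.5%) and in 15786 of all windows (45.0%). The E-box CACGTG was found in 5 of the 32 (15.6%), against 7.26% of all. Of the letters searched for a sterol regulatory element, TCACNCCAC, the only match among the 32 was in SREBF2, against 1.13% of all windows. The LXR element, a direct repeat of AGGTCA with 4 free bases between, had no match among them and was in 0.0199% of all windows. None of these motifs contains another, and a match describes the letters of the window. The background of all windows was not matched to the 32 promoters for GC content or for expression of the gene.

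The total of the estimated counts was 56978375, 63984133 and 58181114 in the treated samples and 70275355, 65607669 and 59422939 in the untreated ones. In every sample this total exceeds the valid reads that the study lists, so it is not the number of reads sequenced. Here and throughout, values of single samples stand in the order of their numbers, 1, 2 and 3. The 36 genes together took from 0.339% to 0.428% of the counts in MA PANC-1 and from 0.305% to 0.386% in PANC-1 samples, so the groups overlapped. All 36 passed the filter on low values, a mean of at least 0.1 FPKM over the 6 samples, and were fitted together with all 17774 genes that did so. The highest level in PANC-1 cells was that of SCD, the desaturase that makes monounsaturated fatty acids, at 105 ± 26.5 FPKM (SD, n = 3). ELOVL5, PMVK, ACLY and NSDHL followed at 41.8, 41.1, 39.6 and 33.7 FPKM. The lowest were STARD4 at 1.65 FPKM and INSIG2 at 0.994 FPKM.

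Several sterol enzymes were higher after MA, and the fatty acid enzymes lay on both sides of their untreated level, but the split between the arms depended on single samples and the difference between them was not tested. In edgeR's quasi-likelihood test, 5 of the 18 sterol enzymes were higher at an unadjusted p under 0.05, and none was lower. The 5 were MVK, MVD, FDFT1, TM7SF2 and DHCR7. None of the 8 fatty acid enzymes passed in either direction. Of the 8 regulators, SREBF2 and NR1H2 were higher and none was lower, and neither transport gene passed. Among all genes tested, 5.37% were higher and 5.86% lower at this threshold, and 11.2% passed in either direction, against 7 of the 36 (19.4%).

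The log2 fold change was above 0 in 17 of the 18 sterol enzymes, with SC5D as the exception, and in 5 of the 8 fatty acid enzymes, against 49.8% of all genes tested. Without MA PANC-1 2 these counts were 16 of 18 and 7 of 8, so the contrast between the arms in direction was not seen without that sample, and with a GC trend removed from each library they were 18 of 18 and 6 of 8. The share of all genes tested above 0 was 48.8% and 57.9% in these fits. The median log2 fold change was 0.25 over the sterol enzymes, 0.10 over the fatty acid enzymes and 0.19 over the regulators, beside −0.00 over all genes tested. In the edgeR fit used here, none of the 36 reached the study's thresholds of a 2-fold change with an unadjusted p under 0.05, which 1.92% of all genes did. None kept an adjusted p under 0.05 either (edgeR with Benjamini-Hochberg adjustment over all genes), which 0.0394% of all genes did. The smallest adjusted p was 0.375, that of DHCR7, so the values below are given as differences at an unadjusted p. DESeq2, run as an alternative, gave an adjusted p under 0.05 to 1.48% of all genes and, among the 36, to DHCR7. The study itself counts DHCR7 among its differentially expressed genes and describes a similar trend by qRT-PCR. In the edgeR fit used here, the log2 fold change of DHCR7, 0.77, stayed short of the study's 2-fold threshold.

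**Figure D1:**
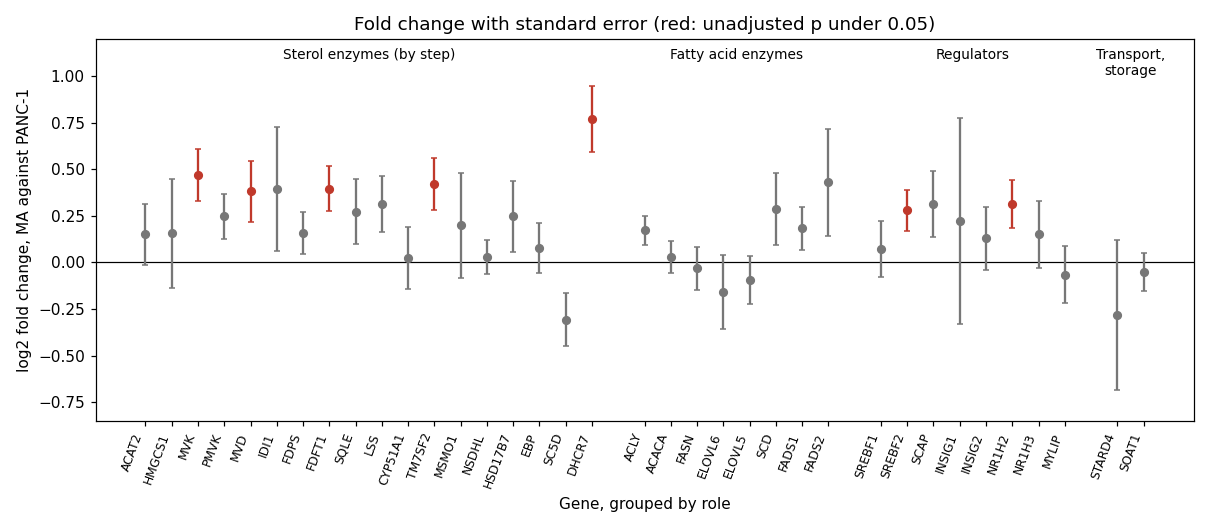
Log2 fold change of MA PANC-1 against PANC-1 for each of the 36 genes (points) with its standard error (bars) from edgeR, the genes standing in pathway order within their roles along the horizontal axis. The 7 red points have an unadjusted p under 0.05 and all lie above 0, with DHCR7 highest at 0.77, while the fatty acid enzymes lie on both sides of 0 between −0.16 and 0.43 (ELOVL6 and ELOVL5 lie above 0 without MA PANC-1 2).

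The calls depended on the samples. Without PANC-1 1 a single sterol enzyme, DHCR7, and no fatty acid enzyme was higher at an unadjusted p under 0.05. Without MA PANC-1 2 these numbers were 4 of the 18 sterol and 2 of the 8 fatty acid enzymes, and without both samples numbered 2 they were 2 and 0. The share of all genes passing in either direction also moved, from 11.2% to 6.63%, 10.3% and 8.54% in these fits. The transcripts of MA PANC-1 2 had a mean GC content, weighted by counts, of 52.2%, against 50.9% to 51.4% in the other samples. MA PANC-1 2 was the lowest of the 6 samples in 10 of the 36 genes (27.8%, against 35.1% of all genes tested), and the median GC content of those 10 was 42.1%. It was the highest in 5, whose median was 59.3%. A fit that removes the trend of counts with GC from each library is quoted beside single genes below. It placed 1484 genes higher and 849 lower at an unadjusted p under 0.05, against 955 and 1041 without the correction, and moved the median over the sterol enzymes to 0.31 and over the fatty acid enzymes to 0.11, while the median over all genes tested moved to 0.05.

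The mevalonate steps open the sterol pathway. HMGCS1, which condenses acetyl units to HMG-CoA, was at 8.48, 5.99 and 13.9 FPKM after MA and at 8.49, 6.65 and 10.7 FPKM without it. The sample numbered 3 was highest and the sample numbered 2 lowest in both groups, and the groups overlapped. Its log2 fold change was 0.16 (standard error 0.29), with an unadjusted p of 0.609 from edgeR, and 0.30 with the GC trend removed. ACAT2, which makes the acetoacetyl-CoA for this step, had a log2 fold change of 0.15 (standard error 0.16) and ranged from 17.5 to 26.4 FPKM over the 6 samples.

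MVK (ENSG00000110921, chromosome 12, 109573255 to 109598117, plus strand) encodes mevalonate kinase. It was at 3.91, 4.66 and 4.86 FPKM after MA and at 3.00, 3.28 and 3.67 FPKM without it. Every MA PANC-1 value lay above every PANC-1 value. MVK had a log2 fold change of 0.47 (standard error 0.14), with an unadjusted p of 0.0118 from edgeR. PMVK, the next kinase, was at 46.1, 51.5 and 44.8 FPKM after MA and at 38.4, 42.5 and 42.4 FPKM without it. These groups did not overlap either, but the log2 fold change was 0.25 (standard error 0.12) and the unadjusted p from edgeR was 0.0770. With the GC trend removed its value was 0.15.

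MVD (ENSG00000167508, chromosome 16, 88651935 to 88663161, minus strand) encodes the decarboxylase that yields isopentenyl diphosphate. Its values were 8.23, 9.01 and 9.50 FPKM in MA PANC-1 and 6.60, 5.81 and 8.65 FPKM in PANC-1 samples. PANC-1 3 lay above MA PANC-1 1, so the groups overlapped. For MVD the log2 fold change was 0.38 (standard error 0.16), with an unadjusted p of 0.0496 from edgeR, next to the threshold. With the GC trend removed it was 0.28 with an unadjusted p of 0.146. IDI1, the isomerase that follows, had a similar log2 fold change of 0.39 but a standard error of 0.33, since it ranged from 6.88 to 13.8 FPKM among untreated samples alone, and with the GC trend removed it was at 0.57 with an unadjusted p of 0.0653. FDPS, which joins the isoprenoid units to farnesyl diphosphate, had a log2 fold change of 0.16 (standard error 0.11).

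Farnesyl diphosphate enters the sterol branch at FDFT1 (ENSG00000079459), the squalene synthase gene. FDFT1 was at 20.5, 20.4 and 24.6 FPKM after MA and at 15.2, 16.4 and 19.5 FPKM in PANC-1 cells. All MA PANC-1 samples lay above all PANC-1 samples. This gave a log2 fold change of 0.39 (standard error 0.12), with an unadjusted p of 0.0134 from edgeR, and it was 0.42 with the GC trend removed. SQLE, the squalene epoxidase gene and an oxygen-dependent control point of the pathway, was at 18.2, 14.8 and 23.9 FPKM after MA and at 14.8, 14.3 and 18.9 FPKM without it. The groups overlapped, and the log2 fold change was 0.27 (standard error 0.18) with an unadjusted p of 0.165 from edgeR. SQLE transcripts are low in GC (40.6%), and with the GC trend removed the value was 0.54 with an unadjusted p of 0.00152. LSS, which closes squalene epoxide to lanosterol, had a log2 fold change of 0.31 (standard error 0.15) with an unadjusted p of 0.0768 from edgeR.

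**Figure D2:**
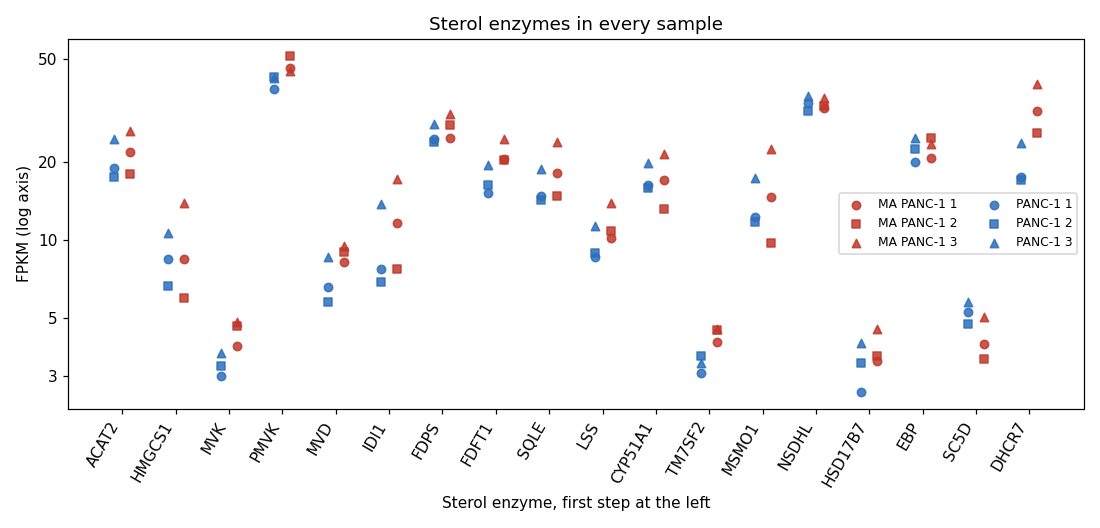
FPKM (log axis) of the 18 sterol enzymes in every sample, from the first step at the left to the last at the right, with MA PANC-1 in red and PANC-1 in blue and the marker shape giving the sample number. The red points stand clear of the blue ones in MVK, PMVK, FDFT1, TM7SF2 and DHCR7, and triangles, the samples numbered 3, top both colours in 15 of the 18 enzymes.

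Between lanosterol and cholesterol the enzymes differed from each other. CYP51A1, the first demethylase, had a log2 fold change of 0.02 (standard error 0.17), and MA PANC-1 2 was its lowest sample at 13.2 FPKM. With the GC trend removed its value was 0.31 with an unadjusted p of 0.0103, and that of MSMO1, the methyl sterol oxidase gene, moved from 0.20 to 0.49 with an unadjusted p of 0.0165. Both genes are low in GC, at 39.9% and 38.7%. NSDHL, HSD17B7 and EBP, which complete demethylation and shift the ring double bond, had log2 fold changes of 0.03, 0.25 and 0.08, none of them at an unadjusted p under 0.05. HSD17B7 was at 0.39 with the GC trend removed.

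TM7SF2 (ENSG00000149809, chromosome 11, 65111845 to 65116384, plus strand) encodes a sterol reductase that acts after CYP51A1. It was at 4.04, 4.50 and 4.56 FPKM after MA and at 3.08, 3.57 and 3.38 FPKM without it. The groups did not overlap. Its log2 fold change was 0.42 (standard error 0.14), with an unadjusted p of 0.0190 from edgeR, and 0.32 with the GC trend removed.

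DHCR7 (ENSG00000172893, chromosome 11, 71428193 to 71452868, minus strand) showed the greatest difference of the 36 genes. It encodes the reductase that turns 7-dehydrocholesterol into cholesterol, the closing step of the branch. DHCR7 was at 31.6, 25.9 and 40.1 FPKM after MA and at 17.6, 17.1 and 23.7 FPKM without it. The lowest treated sample stood above the highest untreated one. The means were 32.5 ± 7.18 FPKM (SD, n = 3) and 19.5 ± 3.67 FPKM (SD, n = 3). On the log2 scale the fold change was 0.77 (standard error 0.18), with an unadjusted p of 0.00309 and an adjusted p of 0.375 from edgeR. DESeq2 gave an adjusted p of 0.0099. An exact permutation test over the 6 samples gave p = 0.1 (two-sided), the smallest that 3 samples against 3 can give. Over 20 alternatives, leaving out samples among them, the log2 fold change lay between 0.62 and 0.93 and the unadjusted p was under 0.05 in 20 of 20.

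SC5D (ENSG00000109929, chromosome 11, 121292681 to 121308630, plus strand), whose enzyme makes the 7-dehydrocholesterol that DHCR7 consumes, had the lowest log2 fold change of the 36 genes. It was at 3.98, 3.48 and 5.05 FPKM after MA and at 5.32, 4.75 and 5.77 FPKM without it. MA PANC-1 3 lay above PANC-1 2, so the groups overlapped. SC5D had a log2 fold change of −0.31 (standard error 0.14), with an unadjusted p of 0.0653 from edgeR. SC5D has the lowest GC content of the 36, 38.1%, and with the GC trend removed its value was 0.06, so its direction depends on that correction, whereas that of DHCR7 stayed at 0.71 under it. The FPKM of DHCR7 divided by that of SC5D, a ratio formed after the values of both were seen, was 7.92, 7.42 and 7.94 after MA and 3.31, 3.60 and 4.10 without it. The mean ratio was 7.76 ± 0.294 (SD, n = 3) and 3.67 ± 0.402 (SD, n = 3), 2.11 times as high after MA. In the fit with the GC trend removed, the log2 fold change of DHCR7 exceeded that of SC5D by 0.65, a ratio 1.57 times as high. In DHCR7 and SC5D alike the sample numbered 3 was highest in both groups, and in the ratio the 3 treated samples lay close together.

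**Figure D3:**
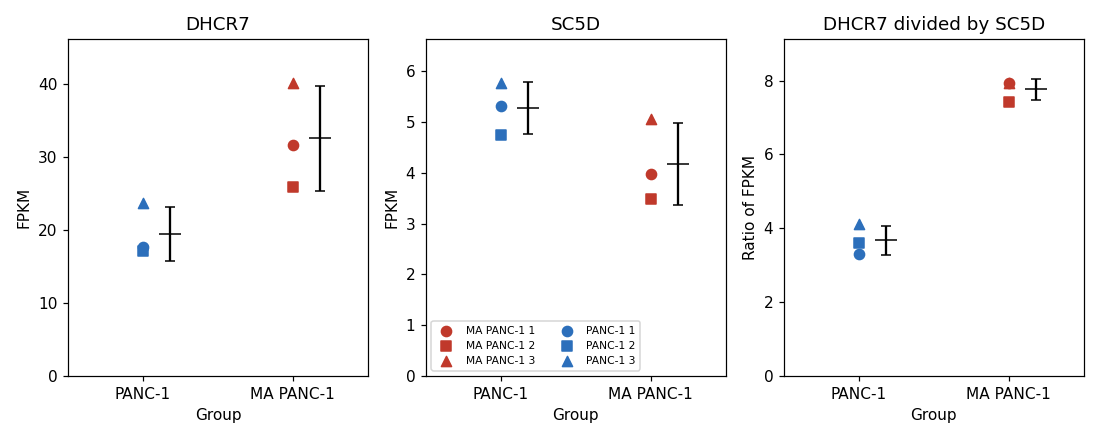
FPKM of DHCR7 and SC5D and the ratio of the first to the second in each sample, by group, with horizontal marks for the mean and bars for the SD of 3 samples. DHCR7 is higher and SC5D mostly lower in MA PANC-1, and the ratio lies between 7.42 and 7.94 after MA against 3.31 to 4.10 without it, uncorrected for GC content.

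The level of the pathway also differed between samples of the same treatment. The sample numbered 3 was the highest of its group in both groups in 15 of the 18 sterol enzymes, 6 of the 8 fatty acid enzymes, 2 of the 8 regulators and both transport genes, 25 of 36 in all (69.4%). Among all genes tested this held for 17.2%, and among the 11470 with a mean of at least 1 FPKM for 18.4%. INSIG1, whose protein retains SREBP and whose gene is itself an SREBP target, varied most among the untreated samples. It was at 4.15, 3.58 and 11.6 FPKM after MA and at 4.15, 3.06 and 9.61 FPKM without it. Both samples numbered 3 stood apart from the other 4, at either treatment. The highest untreated value was 3.14 times the lowest, a spread matched or exceeded by 2.21% of the genes with a mean of at least 1 FPKM. Against that spread, the log2 fold change after MA was 0.22 (standard error 0.55).

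Averaged on the log2 scale relative to the PANC-1 mean of each gene, the sterol enzymes stood at 0.13, 0.02 and 0.46 after MA and at −0.11, −0.12 and 0.23 without it. PANC-1 3 thus lay above MA PANC-1 1 and 2. The fatty acid enzymes stood at 0.02, −0.12 and 0.28 after MA and at −0.08, −0.08 and 0.16 without it, with the same sample highest in each group. Within each sample number, the MA PANC-1 value was above the PANC-1 value in 12 of the 18 sterol enzymes and in 3 of the 8 fatty acid enzymes for every number, against 16.6% of all genes tested. What sets the samples numbered 3 apart was not tested, and the labels name no batch.

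**Figure D4:**
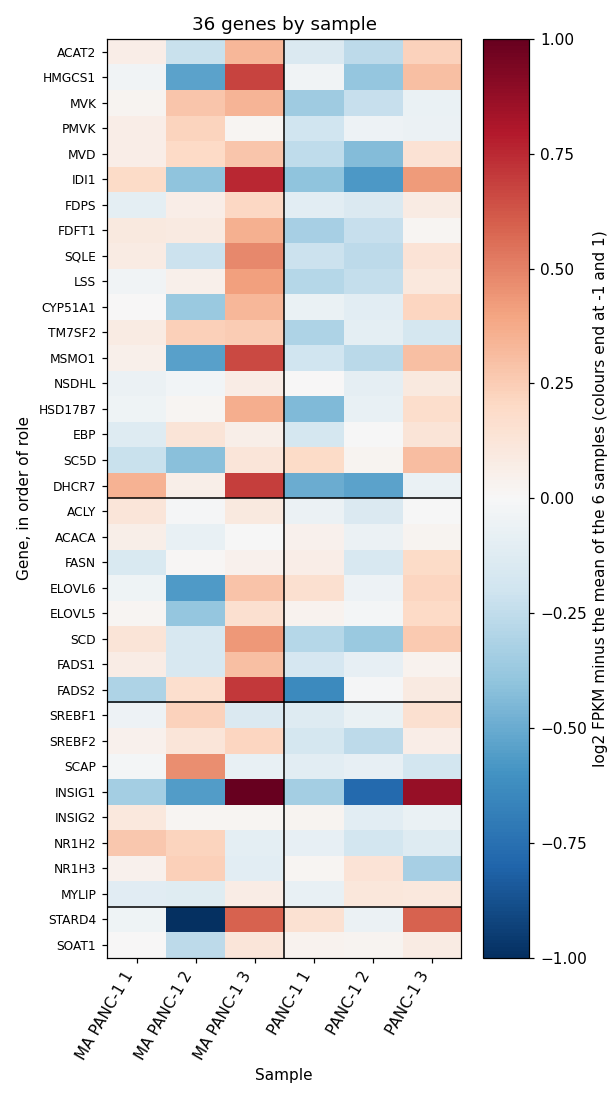
Log2 FPKM of each of the 36 genes in each sample, minus its mean over the 6 samples (red above, blue below), with lines between the roles and between the treatments. The columns of MA PANC-1 3 and PANC-1 3 are red through most sterol and fatty acid enzymes, and reddest in the regulator gene INSIG1. MVK, FDFT1, TM7SF2 and DHCR7 are redder in all 3 treated columns than in the untreated column of the same number.

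The fatty acid arm begins with ACLY, which releases cytosolic acetyl-CoA from citrate and so feeds both routes. ACLY had a log2 fold change of 0.17 (standard error 0.08) with an unadjusted p of 0.0607 from edgeR. ACACA, the carboxylase that makes malonyl-CoA, ranged from 5.35 to 5.87 FPKM over all 6 samples and had a log2 fold change of 0.03 (standard error 0.08). FASN, the synthase that makes palmitate, was at 16.9, 19.0 and 19.4 FPKM after MA and at 19.7, 16.9 and 21.5 FPKM without it. The treated values lay within the untreated range. Its log2 fold change was −0.03 (standard error 0.12), with an unadjusted p of 0.790 from edgeR. The approximate 95% interval ran from −0.26 to 0.20, and the value was −0.15 with the GC trend removed.

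Downstream of palmitate, ELOVL6 and ELOVL5, which elongate saturated and polyunsaturated chains, had log2 fold changes of −0.16 and −0.10, and MA PANC-1 2 was the lowest sample of both. Without that sample both values turned, to 0.011 and 0.015, and ELOVL5 was at 0.021 with the GC trend removed. SCD was at 123, 101 and 151 FPKM after MA and at 92.1, 86.8 and 135 FPKM without it. Again the sample numbered 3 was highest in both groups, and PANC-1 3 exceeded 2 of the treated samples. For SCD the log2 fold change was 0.29 (standard error 0.20), with an unadjusted p of 0.184 from edgeR. FADS1 and FADS2, the desaturases of polyunsaturated fatty acids, had log2 fold changes of 0.18 and 0.43, neither at an unadjusted p under 0.05. FADS2 overlaps FEN1 on the same strand, which held 86.3% of their summed counts, and its span also covers FADS1 on the other strand, so its estimate is uncertain.

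Of the SREBP factors themselves, SREBF2, whose protein chiefly activates sterol genes, passed the unadjusted threshold and SREBF1, whose protein chiefly activates fatty acid genes, did not. SREBF2 (ENSG00000198911, chromosome 22, 41833079 to 41907307, plus strand) was at 16.4, 17.3 and 18.4 FPKM after MA and at 14.1, 13.3 and 16.7 FPKM without it. Only PANC-1 3 reached into the treated range. SREBF2 had a log2 fold change of 0.28 (standard error 0.11), with an unadjusted p of 0.0382 from edgeR, and 0.21 with an unadjusted p of 0.106 once the GC trend was removed. SREBF1 was at 14.7, 17.8 and 13.7 FPKM after MA and at 13.9, 14.5 and 16.9 FPKM without it. Its highest and lowest samples were both treated ones, and the log2 fold change of 0.07 (standard error 0.15) became −0.04 with the GC trend removed. Whether the fold changes of SREBF2 and SREBF1 differ from each other was not tested.

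SCAP, the escort of SREBP, was at 16.8, 23.5 and 16.2 FPKM after MA and at 15.8, 16.1 and 15.0 FPKM without it. The groups did not overlap, but MA PANC-1 2 alone stood far above the rest. The log2 fold change was 0.31 (standard error 0.18) with an unadjusted p of 0.117 from edgeR, and 0.07 without MA PANC-1 2. INSIG2, the second retention protein, was at 1.10, 1.04 and 1.04 FPKM after MA and at 1.05, 0.955 and 0.981 FPKM without it. It showed none of the spread of INSIG1, with a ratio of highest to lowest untreated value of 1.10, and its log2 fold change was 0.13 (standard error 0.17). INSIG2 transcripts are low in GC (39.1%), and with the GC trend removed the value was 0.50 with an unadjusted p of 0.0724.

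NR1H2, which encodes LXR beta, was at 13.4, 13.0 and 10.4 FPKM after MA and at 10.5, 9.78 and 10.1 FPKM without it. MA PANC-1 3 lay within the untreated range. The log2 fold change was 0.31 (standard error 0.13), with an unadjusted p of 0.0463 from edgeR, and 0.20 with an unadjusted p of 0.0677 with the GC trend removed. Over 20 alternatives it passed in 6. NR1H3, the LXR alpha gene, and MYLIP, an LXR target that encodes a ubiquitin ligase, had log2 fold changes of 0.15 and −0.07, and 0.051 and −0.029 with the GC trend removed. STARD4, which carries cholesterol between membranes, and SOAT1, which esterifies it for storage, had log2 fold changes of −0.28 (standard error 0.40) and −0.05 (standard error 0.10). Without MA PANC-1 2 both turned, to 0.053 and 0.012, and with the GC trend removed they were at −0.083 and 0.24. STARD4 was lowest in MA PANC-1 2 at 0.593 FPKM, against 1.34 FPKM or more in the other 5 samples.

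Non-overlapping groups were found in 6 of the 36 genes, MVK, PMVK, FDFT1, TM7SF2, DHCR7 and SCAP, all higher after MA. Of all genes tested, 19.9% had groups that did not overlap, 8.79% with higher and 11.1% with lower values after MA.

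A wider list of 71 other genes of lipid metabolism was examined, of which 65 passed the filter. Of these, 13 were higher and 2 lower after MA at an unadjusted p under 0.05 (23.1% in both directions, against 11.2% of all genes), and none had an adjusted p under 0.05 from edgeR. The count of higher genes rested on single samples: it was 5 without PANC-1 1, 7 without MA PANC-1 2, and 8 without MA PANC-1 1 or without PANC-1 2. In these fits 6.63%, 10.3%, 7.93% and 7.72% of all genes passed in either direction. The lower genes numbered 1 without MA PANC-1 1, PANC-1 1 or PANC-1 2. The median log2 fold change was 0.06. The 2 lower genes were ABCA1 and RNF145, the latter named after its values were seen.

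ABCA1, the exporter of cholesterol and phospholipid and a classic LXR target, had the smallest p of the wider list. It was at 0.787, 0.480 and 0.531 FPKM after MA and at 1.23, 1.33 and 1.43 FPKM without it. All treated values lay well below all untreated ones, at a low level. ABCA1 had a log2 fold change of −1.12 (standard error 0.20), with an unadjusted p of 0.000842 and an adjusted p of 0.222 from edgeR, past the study's 2-fold threshold. The corresponding adjusted p from DESeq2 was 0.00013. ABCG1, its partner in export, had a log2 fold change of 0.39 (standard error 0.28) at a mean of 0.470 FPKM in PANC-1 cells.

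Higher genes of the wider list with small p-values came from sterol handling and from glycerolipid and fatty acid metabolism. NPC1 and NPC2, which pass cholesterol out of the lysosome, had log2 fold changes of 0.36 and 0.39, with unadjusted p-values of 0.0152 and 0.0114 from edgeR. In both genes the groups did not overlap. PNPLA2, a triglyceride lipase, had a log2 fold change of 0.53, and LPCAT3, which puts polyunsaturated chains into phospholipids and is an LXR target, 0.41. FADS3, ELOVL1 and AGPAT2, of desaturation, very long chain elongation and phosphatidic acid synthesis, had log2 fold changes of 0.43, 0.43 and 0.39. ELOVL1 was the one whose groups overlapped. When 1 sample was left out in turn, NPC2, PNPLA2 and LPCAT3 kept an unadjusted p under 0.05 in 6 of 6 fits, FADS3 in 5, NPC1 in 4, and ELOVL1 and AGPAT2 in 2. MBTPS1 and MBTPS2, the proteases that cleave SREBP in the Golgi, had log2 fold changes of 0.06 and −0.22, with unadjusted p-values of 0.511 and 0.211 from edgeR, and MBTPS2 was at −0.0026 with the GC trend removed.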

How the data were processed

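RNA of 3 MA PANC-1 and 3 PANC-1 samples was sequenced as poly(A) RNA with dUTP-marked strands. The submitters' processing notes name cutadapt 1.9, HISAT2 2.0.4, StringTie 1.3.4d, edgeR and DESeq2. The authors deposited, per gene and sample, an FPKM value (normalized to length and depth, 0.0001 where a gene had no reads) and, beside it, an estimated count, a whole number that was not normalized. Whether counting used strand is not given in the sources used here. All 36 genes overlap their own gene on GRCh38 (GENCODE 29).

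Counts were fitted with edgeR 4.0.16 (R 4.3.3; quasi-likelihood test, TMM factors) over the 17774 genes that averaged at least 0.1 FPKM, with Benjamini-Hochberg adjustment over all of them. Totals per sample ran from 56978375 to 70275355 counts. Being estimates, the counts carry no counting interval, and precision rests on the spread between the 3 samples of a group. Standard errors are the log2 fold change divided by the root of the F statistic. The 95% intervals are 1.96 standard errors to either side, an approximation narrower than the test itself. That of PMVK, for example, ran from 0.012 to 0.48 and left out 0, at an unadjusted p of 0.0770 from edgeR. On simulated data for this comparison, with 200 of 17774 genes changed, the test called 100 genes, 3 of them wrongly.

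Alternatives were DESeq2 1.42.0, limma 3.58.1 on log2(FPKM + 0.1, 1 or 0.01), a minimum mean of 1 FPKM or no minimum, upper quartile factors, a GC trend removed per library (loess, span 0.5), the replicate number as a block, overlapping genes summed, halved counts, and leaving out samples. Leaving out both samples numbered 2 or 3 was chosen after seeing the data.

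The 36 genes and the wider lipid list were chosen with earlier results of these data known. Values in every sample are given for genes with an unadjusted p under 0.05 or groups that did not overlap, and for SREBF1, SREBF2, SCAP, INSIG1, INSIG2, HMGCS1, SQLE, DHCR7, FASN and SCD. SC5D, and ABCG1, MBTPS1 and MBTPS2 of the wider list, were added after their values were seen. From the wider list, up to 10 genes with the smallest p are named, and other items of this rule are not reported here.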

Additional observations from a re-analysis of the deposited data

How the results depend on the processing

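The medians over the sterol and fatty acid enzymes stayed above 0 under every alternative run, from 0.10 to 0.40 and from 0.05 to 0.12. DHCR7 passed an unadjusted p under 0.05 in 20 of 20 alternatives, MVK, FDFT1 and TM7SF2 in 18 each, SREBF2 in 11, MVD in 8 and NR1H2 in 6. The number of sterol enzymes higher at that threshold, 5, was 1 to 7 when 1 sample was left out (1 without PANC-1 1) and 2 without both samples numbered 2. Fatty acid enzymes, at 0, gave 0 to 2, with 1 without both samples numbered 3. Regulators, at 2, gave 0 to 2 when a sample was left out, 0 with limma at each of the 3 pseudocounts, with the GC trend removed and without both samples numbered 2, and 1 with the filter at a mean FPKM of 1 and with upper quartile factors. Of the 36 genes 0 were lower, against 0 to 1 when a sample was left out and 1 without both samples numbered 3. Adjusted calls were 0 with edgeR and 1 (DHCR7) with DESeq2. In the wider lipid list, the 13 higher genes became 5 to 13 when a sample was left out (5 without PANC-1 1, 7 without MA PANC-1 2, 8 without MA PANC-1 1 or PANC-1 2) and 6 without both samples numbered 2. The 2 lower ones became 1 to 3 when a sample was left out (1 without MA PANC-1 1, PANC-1 1 or PANC-1 2), and 1 with the filter at a mean FPKM of 1 and with the GC trend removed, alone or with the replicate block. The number of genes with an adjusted p under 0.05 among all genes tested, 7, was 263 with DESeq2, 12 with the filter at a mean FPKM of 1, 25 with the GC trend removed, 24, 4 and 3 with MA PANC-1 2, MA PANC-1 1 and PANC-1 2 left out in turn, 3 without both samples numbered 3 and 0 without both samples numbered 2 (1518 at an unadjusted p under 0.05, edgeR).

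Of the 36 genes, 14 changed direction under at least 1 alternative and 22 under none. Beside the 5 below, these were CYP51A1, NSDHL and ACACA (with limma at each pseudocount and without some samples), MSMO1 (without MA PANC-1 3), EBP (without MA PANC-1 2, PANC-1 1 or both samples numbered 2), ELOVL6 and STARD4 (without MA PANC-1 2), ELOVL5 (that and with the GC trend removed) and SOAT1 (both of these and without both samples numbered 2). HMGCS1 lay between −0.20 and 0.37 when 1 sample was left out, negative without the third treated sample, and at −0.018 without both samples numbered 3. INSIG1 lay between −0.48 and 0.85, negative without the third treated or the second untreated sample (−0.072). FASN lay between −0.12 and 0.046, positive without MA PANC-1 1 (0.038) or the third untreated sample, and at 0.033 without both samples numbered 3. SREBF1 lay between −0.089 and 0.17, negative without the second treated sample, at −0.11 without both samples numbered 2, at −0.044 with the GC trend removed and at −0.040 with the replicate block added to that. SC5D was 0.057 with the GC trend removed and 0.046 with the replicate block added. The cause was not tested. For SC5D and the genes under the naming rule in either list, which are not all of the 36, 452 values under an alternative kept direction and side of the threshold, 61 lost and 13 gained the threshold, and 13 turned.

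The replicate number was also fitted as a block. Deviations from the group means correlated between samples of the same number at r = 0.05, 0.11 and 0.12 over 13048 genes, and between other numbers from −0.10 to −0.01. Every sample correlated best with its own number, a hint from the data, since the labels do not say that a number marks a shared culture or day. With the replicate block, 8 sterol enzymes, 2 fatty acid enzymes and 1 regulator were higher and 1 of the 36 genes (SC5D) was lower at an unadjusted p under 0.05. The block combined with removal of the GC trend gave 13, 2 and 1 higher. Of all genes tested, 978 were higher and 1237 lower with the block, and 1329 and 833 with both. Among all genes tested the block left 0 with an adjusted p under 0.05, against 2215 at an unadjusted p under 0.05 (edgeR), and 2 with the GC trend removed as well.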

Other observations

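Further genes of the wider lipid list with an unadjusted p under 0.05 in edgeR, named after their values were seen, belong to neighbouring routes. DHDDS, which extends farnesyl diphosphate to the dolichols of protein glycosylation, was at 13.8, 15.3 and 13.4 FPKM after MA and at 8.79, 12.0 and 12.3 FPKM without it. The groups did not overlap, and PANC-1 1 was the lowest sample. The log2 fold change was 0.40 (standard error 0.16), with an unadjusted p under 0.05 in 3 of 6 fits that left out 1 sample. CPT1A, which admits fatty acids to mitochondria for oxidation, had a log2 fold change of 0.25 with an unadjusted p of 0.0496, and 0.15 with an unadjusted p of 0.0888 without MA PANC-1 2. It passed in 1 of 6 fits that left out 1 sample. RNF145, a sterol-responsive ubiquitin ligase, was at 11.2, 11.3 and 10.7 FPKM after MA and at 13.1, 15.6 and 12.8 FPKM without it, a log2 fold change of −0.28 that was −0.08 with the GC trend removed.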
